A study of Mus musculus with 15 samples.

Results

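The enzymes that break down lysine were followed in LSZ2 and LSZ4, mouse lines of non-small cell lung cancer, after hairpin knockdown of Siva. The set holds 10 genes, chosen by name from the pathway that starts with Aass, of 36282 genes named on the array. The genes were read by 11 probes of 55681, and 7 of the 10 passed the filter on dim probes, which left 22908 genes to test. Aass was put in the set because it fell with Siva hairpins in these arrays, so its difference from control is described without a test, whereas the 9 other genes were taken for their place in the pathway.

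Expression was measured on 15 Agilent arrays of 1 colour. The control arrays came from LSZ2 with shGFP (1 array), LSZ4 with shGFP (2 arrays), LSZ2 with shLacZ (2 arrays) and LSZ4 with shLacZ (2 arrays), and the arrays with a Siva hairpin from each line with shSiva1 and with shSiva2 (2 arrays for each line and hairpin). All cells grew in DMEM with serum, were infected with virus and were harvested 2 days after plating, and all but the shLacZ cells had first spent 3 days in puromycin. The shGFP hairpin was in pLKO.1, shLacZ in LL37 and the Siva hairpins in pLKO TRC2.0. The control arrays shared 1 slide and the shSiva arrays another, so that neither the slide nor the vector can be told apart from Siva knockdown. Separate cultures are not stated for the replicates, and p-values then measure only the spread between these samples.

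Mammalian cells degrade lysine mainly in mitochondria, along the saccharopine route. Aass, a bifunctional enzyme, joins lysine to 2-oxoglutarate and cleaves the product, Aldh7a1 oxidises the resulting semialdehyde, and Aadat, Dhtkd1 with Dlst, and Gcdh carry the carbon skeleton on to crotonyl-CoA, which Echs1, Hadh and Acat1 turn into acetyl-CoA. The pathway is known for its activity in liver and kidney and for the inherited diseases that follow the loss of its enzymes, and a second route through pipecolate uses the peroxisomal oxidase Pipox.

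The 250 bases before the RefSeq start sites of Aass and Dlst are shown here because these 2 enzymes had the lowest changes of the set. RefSeq sequences (GRCm38.p6) were matched by symbol for 8 of the 10 genes. The Aass sequence is chr6:23132987-23133236 on the minus strand, and the Dlst sequence is chr12:85110583-85110832 on the plus strand. Capitals mark matches, on either strand, to CCAAT in Aass and to GGGCGG in Dlst.
Aass: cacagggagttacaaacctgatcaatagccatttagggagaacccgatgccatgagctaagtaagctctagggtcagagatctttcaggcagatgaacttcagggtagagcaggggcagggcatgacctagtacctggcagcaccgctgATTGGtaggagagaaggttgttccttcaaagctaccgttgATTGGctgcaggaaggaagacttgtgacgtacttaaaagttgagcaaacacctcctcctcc
Dlst: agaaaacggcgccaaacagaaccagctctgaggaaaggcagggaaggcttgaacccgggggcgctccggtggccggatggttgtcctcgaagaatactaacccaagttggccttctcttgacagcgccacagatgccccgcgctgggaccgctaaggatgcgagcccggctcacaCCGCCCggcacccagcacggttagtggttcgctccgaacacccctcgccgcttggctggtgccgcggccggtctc
The Aass stretch held CCAAT at 2 places, read as ATTGG on the printed strand, the nearer of them 61 bases before the start. CCAAT occurred in 34.5% of 27025 such promoters. The Dlst stretch held GGGCGG once, 75 bases before the start, a motif that 32.9% of promoters held. Searches found no TATAAA, which 13.0% of promoters held, no CACGTG (6.05% of promoters) and no TGACGTCA (1.62% of promoters) in either stretch. CCAAT was also matched before Dhtkd1 (2 matches), Gcdh (1 match) and Hadh (1 match), and GGGCGG before Hadh, Echs1 and Gcdh (2 matches each) and Aadat (1 match). The Aass stretch had a GC content of 50% and 4 CpG, and the Dlst stretch 64.8% and 23 CpG. The median promoter had a GC content of 52% and 6 CpG.

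The arrays differed in brightness but read the target of the hairpins as labelled. The 75th percentile of signal ran from 428 to 1029 intensity units, no spot was saturated, and the share of spots well above background was 49.0% to 60.6%. The 2 dimmest arrays were both LSZ4 with shGFP. Values below are log2 signals relative to the 75th percentile of their array, so that 0 is the level of that percentile, and they compare arrays for 1 probe and not probes with each other. The median absolute difference between replicates was 0.65 in LSZ4 with shLacZ, 0.53 in LSZ4 with shSiva1 and 0.41 in LSZ4 with shSiva2. In the other groups with replicates it was 0.11 to 0.31. The control mean of Siva1 was 5.77 ± 0.55 (SD, n = 7) against 3.22 ± 0.55 (SD, n = 8) with Siva hairpins, and 17.4% of its control level remained in the fit. Of 9 epithelial markers 7 were well above background on at least 4 arrays, among them the lung markers Sftpb and Scgb1a1. The lung markers Nkx2-1 and Sftpc were on none. In a culture read as bulk RNA, fewer cells of a type and less RNA per cell cannot be told apart.

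Aass, the entry step of the pathway, was lower in every array with a Siva hairpin than in every control array. Its probe (mm9 chromosome 6, 23022668 to 23022727, minus strand) was well above background on 15 of 15 arrays. In LSZ2 the log2 level of Aass was -0.45 with shGFP, -0.50 and -0.65 with shLacZ, -3.02 and -3.48 with shSiva1, and -3.19 and -3.17 with shSiva2. In LSZ4 the log2 level of Aass was -1.40 and -1.65 with shGFP, -0.80 and -1.75 with shLacZ, -3.58 and -3.67 with shSiva1, and -3.41 and -3.80 with shSiva2. The lowest control array, LSZ4 with shLacZ, therefore stood above the highest shSiva array, LSZ2 with shSiva1. Such a separation within each line, in the lower direction, was seen for 2.04% of all genes.

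The mean log2 level of Aass was -1.03 ± 0.56 (SD, n = 7) over control arrays and -3.41 ± 0.27 (SD, n = 8) with Siva hairpins. With the line taken into account the Aass difference was -2.43 on the log2 scale (SE 0.16, 95% interval -2.76 to -2.10), which left 18.6% of the control level. The interval takes no account of the choice of Aass by this difference and is not a test. The median difference of all genes was -0.12. The Aass difference was -2.68 in LSZ2 and -2.21 in LSZ4, -2.45 with shSiva1 and -2.41 with shSiva2, and -2.35 against shGFP and -2.49 against shLacZ. Each of these comparisons shares arrays with the others, except that the LSZ2 and LSZ4 differences have no array in common. With normexp background correction of the mean signals and an offset of 50 added to every signal, the Aass difference was -1.53 and 34.6% of the control level remained, with differences of -2.06 in LSZ2 and -1.08 in LSZ4. Before scaling, the processed signal of Aass ran from 146 to 728 intensity units in control and from 35.8 to 116 in shSiva arrays.

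**Figure D1:**
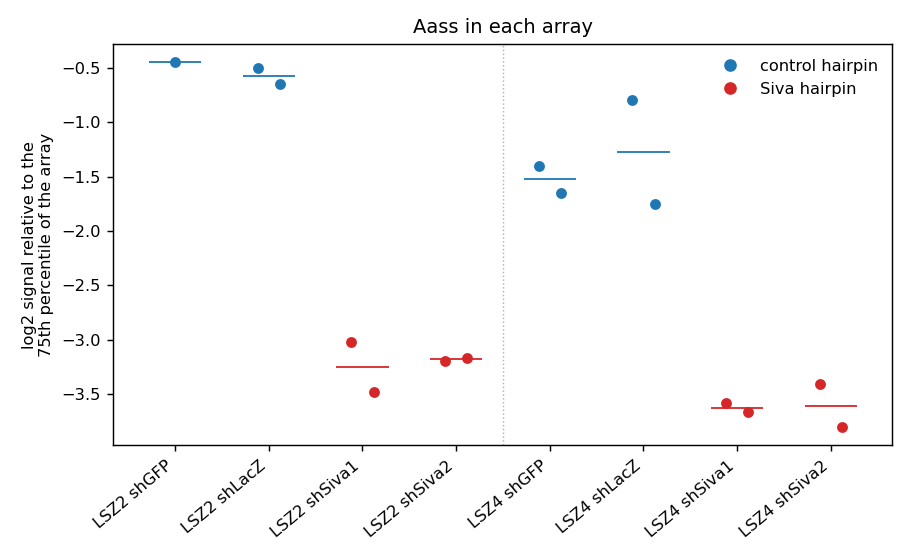
Each point is 1 array, the horizontal line is the mean of its line and hairpin, and the vertical axis is the log2 signal of Aass relative to the 75th percentile of the array. The 8 shSiva arrays lie between -3.80 and -3.02 and the 7 control arrays between -1.75 and -0.45.

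Comparisons that did not choose Aass were tested in limma fits over all genes, with Benjamini-Hochberg adjustment and a threshold of 0.05. The Aass level did not pass the test between the Siva hairpins: shSiva2 minus shSiva1 was 0.04 (SE 0.21, 95% interval -0.41 to 0.49, limma adjusted p = 0.911), in a comparison where 19.5% of genes passed. Between the control hairpins, shGFP minus shLacZ was -0.14 for Aass (SE 0.23, 95% interval -0.64 to 0.36, limma adjusted p = 0.657), and 0.00437% of genes passed. The Siva hairpin effect on Aass in LSZ4 minus that in LSZ2 was 0.47 (SE 0.30, 95% interval -0.17 to 1.11, limma adjusted p = 0.893), and 0% of genes passed that test of a difference by limma, with 526 genes at an unadjusted p under 0.05. With normexp that Aass difference between the lines was 0.98 (limma adjusted p = 0.858).

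Aass also differed between the lines where only control hairpins were present. In control arrays its log2 level was -0.53 ± 0.10 (SD, n = 3) in LSZ2 and -1.40 ± 0.43 (SD, n = 4) in LSZ4, and no LSZ4 array reached the lowest LSZ2 array. LSZ4 minus LSZ2 was -0.87 (SE 0.22, 95% interval -1.34 to -0.40, limma adjusted p = 0.0354), while the median of all genes was 0.32. Of the 7 enzymes tested in this comparison Aass was the 1 that passed, beside 2.46% of all genes called lower and 5.98% called in either direction. The call ended without the LSZ2 shGFP array, either LSZ4 shGFP array, either LSZ2 shLacZ array, the second LSZ4 shLacZ array or either LSZ2 shSiva2 array (highest adjusted p = 0.149), and with normexp correction adjusted p was 0.145. Gcdh and Hadh pointed the other way, with LSZ4 minus LSZ2 of 0.51 and 0.65 in control arrays, and neither passed (limma adjusted p = 0.0954 and 0.0890). Without the first LSZ4 shLacZ array 5 of the 7 passed, namely Aass, Gcdh, Dlst, Echs1 and Hadh. The share of all genes that passed in that fit is not given here. Without the same array the comparison of shSiva with control called 3786 of 22908 genes, against 2285 with all arrays. With Siva hairpins LSZ4 minus LSZ2 was -0.40 for Aass (SE 0.20, limma adjusted p = 0.484), where 0 of 7 enzymes (0 at an unadjusted p under 0.05, beside 2482 of all 22908 genes) and 1.65% of genes passed. The direction of that Aass value turned with normexp, to 0.32 (limma adjusted p = 0.469).

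Of the 6 other enzymes tested, 1 was lower with Siva hairpins and 0 were higher. Dlst fell, whereas Aldh7a1, Gcdh, Echs1, Hadh and Acat1 did not pass. Over all genes 5.68% were called lower, 4.29% higher and 9.97% in either direction. Of the called genes 43.0% were higher, against 67.3% when changes were taken relative to the median of all genes. Counted by probe, 1 of the 6 tested probes besides that of Aass was lower, beside 5.14% of all probes. The median log2 change of the 6 enzymes was 0.04, beside -0.12 for all genes.

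Dlst is the lipoyl-bearing core enzyme that the 2-oxoadipate dehydrogenase of this pathway shares with the 2-oxoglutarate dehydrogenase of the citric acid cycle. In LSZ2 the log2 level of Dlst (mm9 chromosome 12, 86474710 to 86474769, plus strand) was 5.10 with shGFP, 4.90 and 5.14 with shLacZ, 4.33 and 4.50 with shSiva1, and 4.81 and 4.79 with shSiva2. In LSZ4 the log2 level of Dlst was 5.89 and 5.94 with shGFP, 5.03 and 5.68 with shLacZ, 4.11 and 4.58 with shSiva1, and 4.91 and 5.36 with shSiva2. Within each line the Dlst levels with Siva hairpins were under all control levels in 7 of 8 arrays, and the exception was the second LSZ4 array with shSiva2. The highest values came from both LSZ4 shGFP arrays, the dimmest of the series at 428 and 457 intensity units. With array brightness as a covariate, an alternative chosen after seeing the data, the Dlst change was -0.62 (adjusted p = 4.69e-04). That fit called 6690 of 22908 genes.

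Dlst fell by 0.68 on the log2 scale (SE 0.20, 95% interval -1.10 to -0.27, limma adjusted p = 0.0364), to 62.2% of control, with means of 5.38 ± 0.44 (SD, n = 7) and 4.68 ± 0.38 (SD, n = 8). Leaving out 1 array ended this call for 10 of the 15 arrays, with adjusted p up to 0.0774. The call held without the first shLacZ array of either line, either LSZ2 shSiva2 array or the second LSZ4 shSiva2 array. Without both LSZ4 shGFP arrays the Dlst change was -0.52 (adjusted p = 0.158). Before scaling, the processed signal of Dlst ran from 25470 to 30785 intensity units in control and from 14068 to 24987 in shSiva arrays, and the unscaled values of the arms did not overlap. This unscaled gap has no test here and lies between slides.

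Dlst passed with shSiva1 and not with shSiva2, but the difference between the hairpins did not pass. Dlst fell by 0.98 with shSiva1 (SE 0.20, limma adjusted p = 0.00204), where 1 of 6 enzymes and 15.7% of genes were called lower. With shSiva2 the Dlst change was -0.39 (SE 0.20, 95% interval -0.81 to 0.02, limma adjusted p = 0.243), where 0 of 6 enzymes (0 at an unadjusted p under 0.05) and 6.25% of genes were called lower. The difference, shSiva2 minus shSiva1, was 0.58 (SE 0.22, 95% interval 0.11 to 1.05, limma adjusted p = 0.0787), and 0 of 7 enzymes passed in that comparison (1, Dlst, at an unadjusted p under 0.05). Of all 22908 genes, 5491 had an unadjusted p under 0.05 for shSiva2 against control and 7176 for shSiva2 minus shSiva1.

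By control hairpin, Dlst fell by 0.92 against shGFP (SE 0.19, limma adjusted p = 0.00647), in a comparison that called 1 of 6 enzymes and 13.3% of genes lower. That call ended without the second LSZ4 shGFP array (change -0.82, adjusted p = 0.0513). Against shLacZ the change was -0.51 (SE 0.17, limma adjusted p = 0.0786), and 0 of 6 enzymes (1, Dlst, at an unadjusted p under 0.05) and 4.47% of genes were called lower. shGFP minus shLacZ was 0.41 for Dlst (SE 0.22, limma adjusted p = 0.352). By line, the Dlst change was -0.44 in LSZ2 (limma adjusted p = 0.692) and -0.90 in LSZ4 (limma adjusted p = 0.0664), where 0.179% and 2.2% of genes were called lower and 0 of 6 enzymes passed in either (0 and 1 at an unadjusted p under 0.05). LSZ4 minus LSZ2 was -0.46 (SE 0.39, limma adjusted p = 0.893). Of all 22908 genes, 5466 had an unadjusted p under 0.05 against shLacZ, 2348 in LSZ2 and 5009 in LSZ4.

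**Figure D2:**
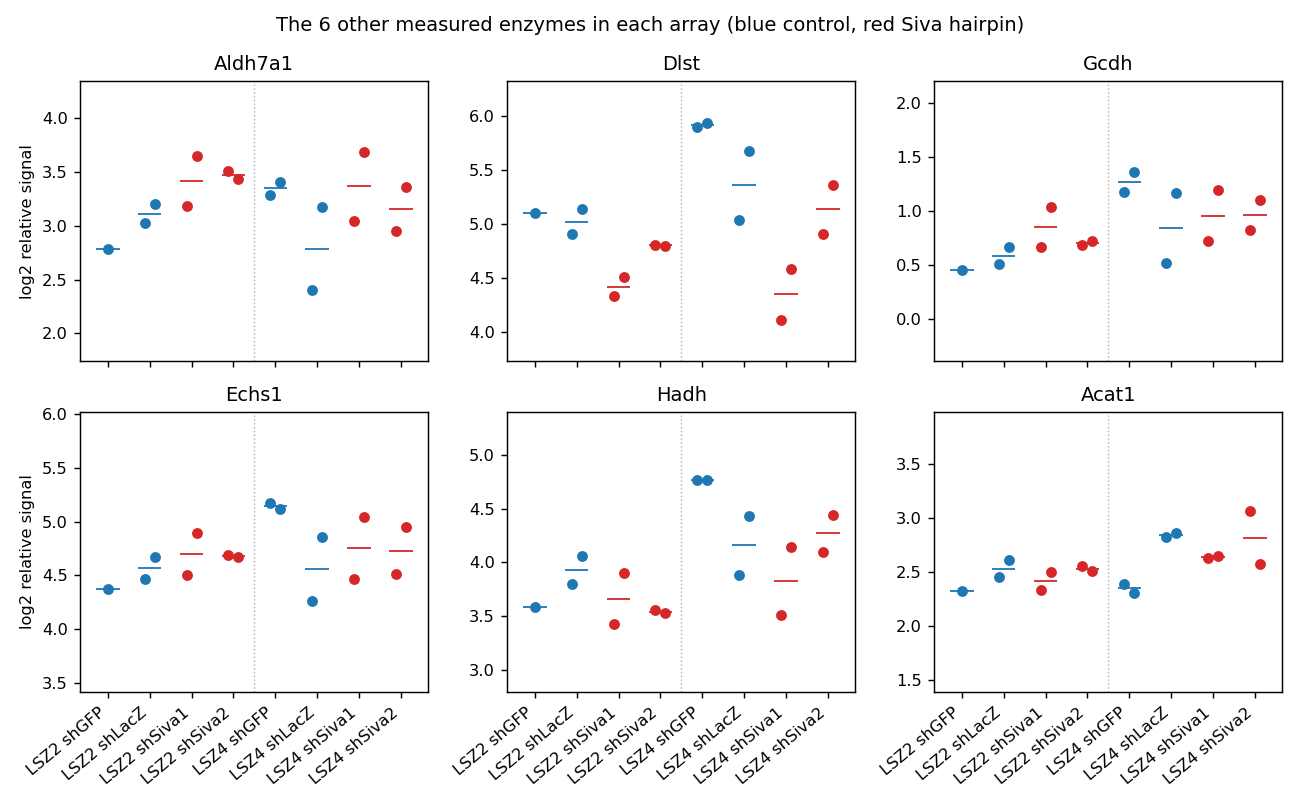
Each panel shows 1 enzyme, each point is 1 array, horizontal lines are means of a line and hairpin, and the vertical axes are log2 signals relative to the 75th percentile of the array, all spanning the same range. Dlst is lower with Siva hairpins in 7 of 8 arrays than in every control array of the line, and an LSZ4 shGFP array holds the highest value of Dlst, Gcdh, Echs1 and Hadh.

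Aldh7a1, which removes the semialdehyde that Aass makes, did not pass the test, and its values pointed upward. Its brighter probe (mm9 chromosome 18, 56686429 to 56686488) gave log2 levels in LSZ2 of 2.78 with shGFP, 3.02 and 3.20 with shLacZ, 3.18 and 3.64 with shSiva1, and 3.50 and 3.43 with shSiva2. In LSZ4 the log2 level of Aldh7a1 was 3.29 and 3.41 with shGFP, 2.40 and 3.17 with shLacZ, 3.05 and 3.68 with shSiva1, and 2.95 and 3.36 with shSiva2. The arms overlapped in LSZ4 and at 1 array in LSZ2, and 4 of 8 shSiva arrays exceeded all control levels of the same line. The Aldh7a1 change was 0.31 (SE 0.17, 95% interval -0.05 to 0.67, limma adjusted p = 0.273). With quantile scaling it rose by 0.43 (limma adjusted p = 0.0269), in a fit that called 3165 of 22908 genes. The other Aldh7a1 probe (56686001 to 56686060) was well above background on 0 of 15 arrays.

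Gcdh, the dehydrogenase that turns glutaryl-CoA into crotonyl-CoA (mm9 chromosome 8, 87410293 to 87410352), had control levels from 0.45 to 1.36 with a median of 0.67. Its shSiva levels ran from 0.67 to 1.20 with a median of 0.77, inside the control range of both lines together. Within lines, 4 of 8 shSiva arrays exceeded all control levels of the same line. These were the LSZ2 arrays, at 0.673 to 1.042 against 0.452 to 0.670 in LSZ2 control. The change in Gcdh was 0.06 (SE 0.15, 95% interval -0.25 to 0.37, limma adjusted p = 0.839).

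The last enzymes of the route serve fatty acid oxidation as well, and none of the 3 passed. Echs1, the enoyl-CoA hydratase (mm9 chromosome 7, 147291772 to 147291831), ran from 4.26 to 5.17 in control and from 4.47 to 5.04 in shSiva arrays, with a change of 0.03 (SE 0.16, 95% interval -0.31 to 0.36, limma adjusted p = 0.937). Hadh, the hydroxyacyl-CoA dehydrogenase (mm9 chromosome 3, 130936889 to 130936948), ran from 3.59 to 4.77 in control and from 3.43 to 4.44 in shSiva arrays, with a change of -0.32 (SE 0.17, 95% interval -0.68 to 0.04, limma adjusted p = 0.258). Hadh was under all control levels of the same line in 4 of 8 shSiva arrays. Acat1, the mitochondrial thiolase that ends the route (mm9 chromosome 9, 53389868 to 53389927), ran from 2.31 to 2.86 in control and from 2.33 to 3.06 in shSiva arrays, with a change of 0.08 (SE 0.13, 95% interval -0.19 to 0.34, limma adjusted p = 0.750). Together the intervals of Gcdh, Echs1 and Acat1 span -0.31 to 0.37 on the log2 scale, so changes of that size in these 3 genes are not excluded.

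With single hairpins the other 5 enzymes stayed short of the threshold as well. The shSiva1 changes of Aldh7a1, Gcdh, Echs1, Hadh and Acat1 lay between -0.40 and 0.35, with the lowest adjusted p at 0.162 for Hadh. The shSiva2 changes of these 5 lay between -0.24 and 0.27, with the lowest adjusted p at 0.491 for Aldh7a1. With quantile scaling, however, Aldh7a1 (0.53, limma adjusted p = 0.00778) and Echs1 (0.28, limma adjusted p = 0.0183) passed for shSiva1. The share of all genes called in that fit is not given here.

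**Figure D3:**
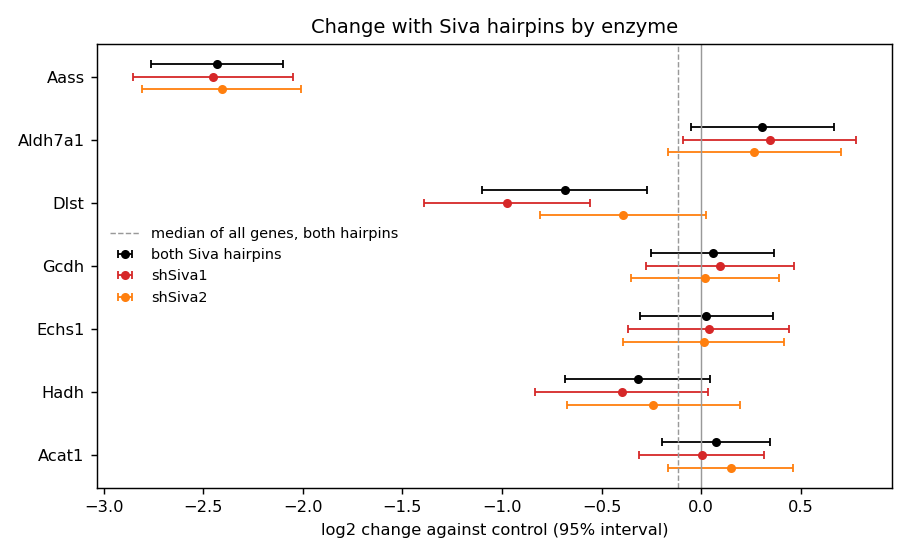
Points are log2 changes against control for 7 enzymes with both Siva hairpins (black), shSiva1 (red) and shSiva2 (orange), bars are 95% intervals of the limma fits, and the dashed line is the median of all genes. The bars of Aass take no account of its choice by these differences and are not a test. Aass lies at -2.43, Dlst at -0.68, and the intervals of the 5 others include 0.

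The 3 remaining enzymes could not be followed. Aadat, which converts 2-aminoadipate to 2-oxoadipate (mm9 chromosome 8, 63024408 to 63024467), was not well above background on any of 15 arrays, with signals from 3.74 to 10.2 intensity units. Dhtkd1, the first subunit of 2-oxoadipate dehydrogenase (mm9 chromosome 2, 5825028 to 5825087), was well above background on 1 array, LSZ2 with shLacZ, at 45.6 intensity units. The other 6 control arrays read Dhtkd1 at 4.76 to 6.50 intensity units and the shSiva arrays at 3.86 to 15.6. Pipox, on the pipecolate route (mm9 chromosome 11, 77694273 to 77694332), was well above background on 2 arrays, both of LSZ2 with shSiva1, at 27.6 and 40.4 intensity units. Pipox was on 0 of 7 control arrays and 0 of 4 shSiva2 arrays. For these 3 genes no fold is given, because the mean of the brighter arm lay under the lowest signal counted as well above background in the dimmer arm.

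**Figure D4:**
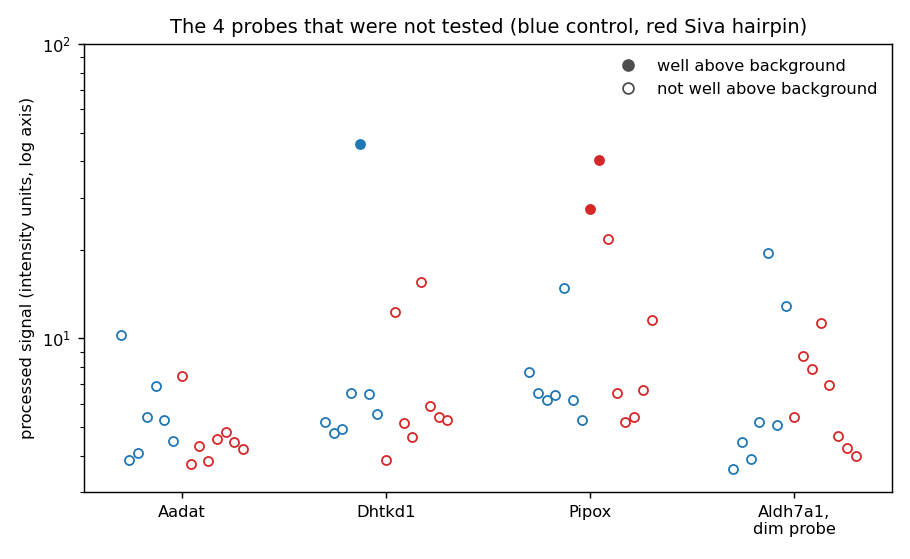
Each point is the processed signal of 1 array in intensity units on a log axis, in blue for control and red for shSiva arrays, and filled points were well above background. The 4 probes that were not tested have 3 filled points, 1 for Dhtkd1 and 2 for Pipox.

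Genes whose 15 values ran most like those of Aass were picked by Pearson correlation among genes with an ordinary symbol. They were Hmgb1 (r = 0.948), a chromatin protein, Pura (r = 0.940), a nucleic acid binding protein, Deptor (r = 0.912), an inhibitor of mTOR, Ammecr1 (r = 0.905) and Asb13 (r = 0.904). The arrays fall into a control and a shSiva cluster for Aass, so r over the 15 arrays is given only as a description of these values. The log2 changes of these 5 genes ran from -1.37 for Deptor to -0.43 for Hmgb1. Among the enzymes, r with Aass was 0.49 for Dlst and 0.15 for Hadh, and from -0.57 for Aldh7a1 to -0.20 for Acat1 in the others.

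Genes around the pathway were described through 6 lists with 109 different genes measured besides the 10 enzymes, of which 10 passed the test, among them Ehhadh, which passed the filter only through the shSiva arrays. Of 17 measured genes of lysine transport and side branches, 2 rose and 2 fell, with a median change of -0.04. Kyat3, an aminotransferase, rose by 0.95 (SE 0.13, limma adjusted p = 3.40e-04), and Slc25a29, a mitochondrial carrier of basic amino acids, rose by 0.81 (SE 0.20, limma adjusted p = 0.0158). The Kyat3 call held in all 28 alternatives, and that of Slc25a29 was lost with normexp, with a random block of line and hairpin and with the 8 groups reduced to their means (adjusted p = 0.0653, 0.0821 and 0.115). Kars, the lysyl-tRNA synthetase, fell by 0.67 (SE 0.16, limma adjusted p = 0.0125), and Phykpl, which breaks down phosphohydroxylysine, fell by 0.60 (SE 0.15, limma adjusted p = 0.0218, and 0.0508 without the second LSZ4 shLacZ array). The Kars call was lost with the random block, with 8 means and without both LSZ4 shGFP arrays (adjusted p = 0.0696, 0.148 and 0.0626), and the Phykpl call in these 3 alternatives (0.0681, 0.224 and 0.0981) and relative to the median of all genes (0.0640). Without both LSZ4 shGFP arrays 2 genes of this list rose and 0 fell.

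Of 20 genes of the 2-oxoacid dehydrogenase complexes, the group to which Dlst belongs, 1 rose and 1 fell, with a median of 0.02. Lias, which makes the lipoyl group that Dlst carries, fell by 1.02 (SE 0.20, limma adjusted p = 0.00531), with a change of -0.56 for shSiva1 and -1.48 for shSiva2. Pdp2, a phosphatase of pyruvate dehydrogenase, rose by 0.56 (SE 0.13, limma adjusted p = 0.0115), a call lost when all probes of a gene were averaged (change 0.36, adjusted p = 0.164), with normexp (adjusted p = 0.110) and with 8 means (adjusted p = 0.172). The Lias call held in 27 of 28 alternatives and was lost with 1 mean for each of the 8 groups (adjusted p = 0.120).

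Of 26 genes of fatty acid oxidation and electron transfer, the process in which Echs1 and Hadh also act, 1 fell and Ehhadh alone was called higher (median -0.14). Cpt1a, which admits fatty acids to mitochondria, fell by 0.70 (SE 0.15, limma adjusted p = 0.00811, and 0.0505 with the random block and 0.130 with 8 means). Ehhadh, a peroxisomal enzyme, stood well above background on 7 of 8 shSiva arrays but 1 of 7 in control, so it passed the filter on dim probes only through the shSiva arrays, and its call is not used as a result. Of 24 genes of branched-chain amino acid breakdown 1 rose, Mccc1 of leucine breakdown, by 0.52 (SE 0.11, limma adjusted p = 0.00697, and 0.0800 with normexp and 0.146 with 8 means), and 0 fell (median 0.04). Of 7 genes of tryptophan breakdown, whose late steps use Gcdh, Kmo fell by 0.58 (SE 0.17, limma adjusted p = 0.0384) and 0 rose (median -0.12), and leaving out any 1 of 9 arrays, among them each shGFP array, ended the Kmo call (adjusted p up to 0.0811). With normexp the Kmo change was -0.05 (adjusted p = 0.939). In a list of 20 genes for mitochondrial content 0 passed by limma (4 at an unadjusted p under 0.05, beside 5832 of all 22908 genes), with a median of -0.25. With array brightness as a covariate 7 of the 20 were called lower, in a fit that called 6690 of all genes. The 10 calls among 109 genes, Ehhadh included, stood beside 9.97% of all genes called.

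**Figure D5:**
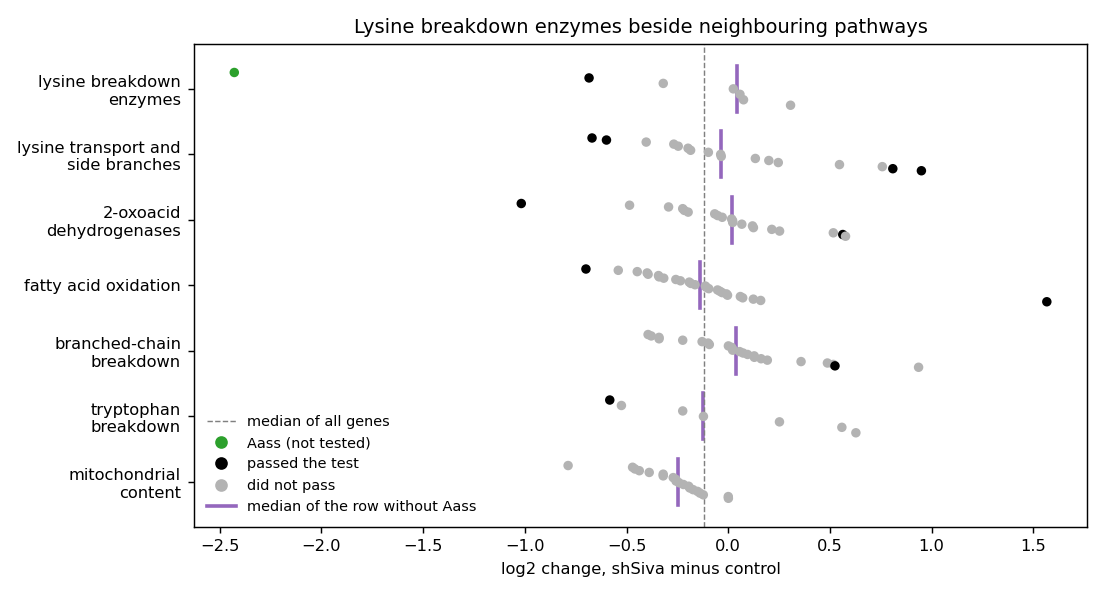
Each point is the log2 change of 1 gene with Siva hairpins, in rows for the lysine breakdown enzymes and 6 neighbouring lists, black where the limma test passed (the point farthest right is Ehhadh, dim in most control arrays) and green for Aass, which was not tested here. Aass at -2.43 lies left of every other gene shown, and the medians of the rows (purple, without Aass) lie between -0.25 and 0.04.

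Markers of other cell types were read beside these results. Pecam1, an endothelial marker, fell by 0.66 (limma adjusted p = 0.0173) and was the 1 that passed of the 2 measured endothelial markers of 3. Their summed relative signal ran from 4.0 to 12.1 in control and from 3.40 to 9.73 in shSiva arrays. Of 5 liver and kidney markers Ttr was measured, on 0 of 7 control and 6 of 8 shSiva arrays, and Alb and Apoa1 were on none. Summed epithelial markers ran from 1110 to 2750 in control and from 1124 to 2269 in shSiva arrays. Of the 7 measured, Epcam was the 1 that passed and rose by 0.68 (limma adjusted p = 0.00988), beside 9.97% of all genes called. Fibroblast markers (2 of 7 measured, sums from 0.060 to 0.146 in control and from 0.047 to 0.205 in shSiva arrays) and immune markers (3 of 5 measured, sums from 0.745 to 1.91 and from 0.750 to 2.05) had 0 genes that passed in limma (0 at an unadjusted p under 0.05). Each sum is weighted towards the brightest probes of its list, so it does not give the share of a cell type. The part of these markers in the values of Aass and Dlst was not tested.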

How the data were processed

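Total RNA (200 ng) was labelled with Cy3, per the labels. Per the file headers, Feature Extraction 10.7.3.1 gave the intensity of each spot, with background subtracted, in the scanner files the authors deposited. Their value table holds deposited log2 values. Set against the scanner files, 99.4% of its single values (55681 probes on 15 arrays) lay within 0.05 of the log2 processed signal scaled to the 75th percentile of the array, with the median of the probe over arrays set to 0. The column medians of the value table ran from -0.26 to 0.53. The authors' test is not given in the sources used here.

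Control and outlier spots were left out, spots of a probe averaged, and the log2 processed signal reduced by the 75th percentile of its array. A probe had to be well above background on 4 or more arrays and to lack no more than 3, which held for 32188, and the brightest probe on average stood for a gene. Symbols were updated through RefSeq accessions for 26582 probes, and 29099 kept the name of the file. Fits to all 15 arrays used limma 3.58.1 under R 4.3.3 (tables read by data.table, version 1.17.8), with line and arm, means of line and arm, or line and hairpin as terms, and Benjamini-Hochberg adjustment over 22908 genes at 0.05. The code was tested on simulated data. The number of arrays limits the precision.

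The members and lists were chosen with earlier results of these data known. Genes named besides the 10 enzymes are Siva1, at most 2 rises and 2 falls of each list with the smallest adjusted p, and the 5 most correlated with Aass, passing over identifiers. Listed markers were named after their values were seen. That both LSZ4 shGFP arrays carry the same hairpin is a reading of their labels. Pairing by replicate number is not stated in the labels, and the main fits did not use it. Same-numbered arrays nonetheless deviated together with r above 0.1 in 14 of 21 pairs of groups (median r 0.23, r from -0.21 to 0.73). Probe positions are mm9, per the file headers. Whether a probe lies in a coding exon or a UTR was not looked up here.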

Additional observations from a re-analysis of the deposited data

Results flagged for a closer look

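Outlying arrays were sought in groups of 4 to 8 arrays with Dixon's test, which gave 4 results in 56 groups of arrays, and chance gives about 1 in 20. Several of the groups hold the same arrays. In LSZ2 shSiva arrays, the second array of LSZ2 with shSiva1 read 1.04 for Gcdh, apart from the next array at 0.72. The first array of LSZ4 with shSiva2 read 3.06 for Acat1, which stood apart among all shSiva arrays (next 2.65), among LSZ4 shSiva arrays (next 2.65) and among shSiva2 arrays (next 2.57).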

How the results depend on the processing

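The fall of Aass kept its direction in all 28 alternatives, between -2.53 and -1.53, the latter with normexp and an offset of 50 on every signal. In the comparison of shSiva with control, where 1 of 6 enzymes passed, 2 passed with quantile scaling (Aldh7a1 and Dlst), 3 with array brightness as a covariate (Aldh7a1, Dlst and Hadh), and 0 without the filter on dim probes, with a random block of line and hairpin, with 1 mean for each of the 8 groups, without both LSZ4 shGFP arrays, or relative to the median of all genes. The Dlst adjusted p was then 0.0634, 0.109, 0.213, 0.158 and 0.0854. The alternatives on brightness, on both LSZ4 shGFP arrays and on the median of all genes were chosen after seeing the data. Of all 22908 genes, 3165 were called with quantile scaling and 6690 with brightness as a covariate, against 2285 as reported. Counted by probe besides Aass, 1 passed, against 2 with quantile scaling and 0 without the filter, with the random block or with 8 means. Leaving out each replicate in turn gave 0 to 1 enzymes and 0 to 1 probes, and the arrays whose loss ended the Dlst call were LSZ2 shGFP 1, LSZ4 shGFP 1 and 2, LSZ2 shLacZ 2, LSZ4 shLacZ 2, LSZ2 shSiva1 1 and 2, LSZ4 shSiva1 1 and 2, and LSZ4 shSiva2 1.

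For comparisons other than shSiva against control, the share of all genes called under each alternative is not given here. Their counts of enzymes are therefore not read as results about the enzymes. In LSZ4 alone 0 enzymes passed, against 1 with quantile scaling and 0 to 1 in leave-one-out fits. With shSiva1 1 passed, against 3 with quantile scaling (Aldh7a1, Dlst and Echs1), and with shSiva2 0 passed, against 1. For shSiva2 minus shSiva1 0 passed, against 1 with quantile scaling, 1 without both LSZ4 shGFP arrays and 0 to 1 in leave-one-out fits. Against shGFP 1 passed, with 2 under quantile scaling, 0 with 8 means and 0 to 2 in leave-one-out fits, and against shLacZ 0 passed, with 2 under quantile scaling and 0 to 1 in leave-one-out fits. Between the lines in control arrays 1 passed, Aass, against 0 with normexp, without the filter, with the random block and with 8 means, and 0 to 5 in leave-one-out fits. The Aass adjusted p was then 0.145, 0.0690, 0.175 and 0.204, and the arrays whose loss ended that call were LSZ2 shGFP 1, LSZ4 shGFP 1 and 2, LSZ2 shLacZ 1 and 2, LSZ4 shLacZ 2, and LSZ2 shSiva2 1 and 2. The 6 neighbouring lists had 10 calls among 109 genes, against 6 with normexp, 4 with the random block, 1 with 8 means, 6 without both LSZ4 shGFP arrays and 26 with brightness as a covariate. In the same order, these fits called 838, 957, 292, 1347 and 6690 of all 22908 genes, against 2285 as reported. The Kmo call ended without LSZ2 shGFP 1, LSZ4 shGFP 1 or 2, LSZ2 shLacZ 1, LSZ4 shLacZ 2, LSZ2 shSiva1 2, LSZ4 shSiva1 1, LSZ2 shSiva2 1 or LSZ4 shSiva2 1. The number of all genes called, 2285, ranged from 292 with 8 means to 6690 with brightness as a covariate. With the replicate number as a block, a pairing the labels do not state, 1 enzyme passed in LSZ4, 1 for shSiva2 minus shSiva1, 2 against shGFP (Dlst and Hadh) and 1 against shLacZ. For shSiva against control that block called 2906 of all genes. Of 2142 single-gene values under alternatives, 0 calls reversed, but 29 lost their call, 25 gained one, 7 values of Aass without a test moved by more than the spread between arrays, and 79 values in all changed sign. The causes of these changes were not tested. Signal over background left Aadat, Dhtkd1 and Pipox without a test.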
